A study of Mus musculus with 2 samples.

Results

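The Mir183 cluster consists of the miRNA genes Mir183, Mir96 and Mir182, and it is described here together with Mir375, a gene of endocrine cells. These 4 genes, of 2202 counted miRNA genes, were taken by their GENCODE M21 names. They were grouped because all of them had lower values in replicate 2 than in replicate 1 of the same tissue, so that difference chose the genes and is given as a description, with no test. The samples were 2 small RNA libraries of cerebral cortex from wild-type mice of strain B6NCrl, annotated as female controls with no treatment. They form 1 group, and all of its members share that genotype and strain. The age and sex fields read as not collected, and both libraries cite 1 donor record although each has its own tissue record. The labels number the libraries as biological replicates 1 and 2, each with technical replicate number 1. Separate animals are still not stated, and the spread between the libraries may be technical.

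MicroRNAs are short RNAs, cut from hairpin precursors, that pair through their seed (bases 2 to 8 of the mature strand) with messenger RNAs and repress them. The Mir183 cluster is known as a single primary transcript that yields several miRNAs, and it is abundant in photoreceptors, inner ear hair cells and other sensory neurons. Changes in the miR-96 seed cause hearing loss in mouse and human. Mir375 is known from pancreatic islets, where it limits insulin secretion, and from the pituitary gland.

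The mature strands show what sets the cluster's members apart. RefSeq (GRCm38.p6) listed all 4 genes and 7 of their mature strands. The 5p strands of the cluster and the listed strand of Mir375 follow, 5′ to 3′, with the seed in capitals, since the seed decides which messages each can pair with. The strand known to act in islets, miR-375-3p, was not analysed here, so the miR-375-5p seed is not that of the insulin-limiting miRNA.
mmu-miR-183-5p: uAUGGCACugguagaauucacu
mmu-miR-96-5p: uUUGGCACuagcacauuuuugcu
mmu-miR-182-5p: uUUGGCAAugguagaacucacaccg
mmu-miR-375-5p: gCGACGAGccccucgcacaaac
Positions were counted from 1 at the 5′ end of each strand, with no gaps. In the seed, miR-182-5p differed from miR-96-5p by A8C alone, and miR-96-5p from miR-183-5p by U2A alone. Between miR-182-5p and miR-183-5p the seed differences were U2A and A8C. Over the whole strand, seed included, the resemblance ran differently. There miR-182-5p and miR-183-5p had the same base at 18 of 22 positions, while miR-182-5p and miR-96-5p matched at 12 of 23. Each of the 7 strands occurred in the sequence of only 1 of the 2202 counted genes.

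The counts are per gene and thus cover the whole hairpin, so the 2 arms of a hairpin cannot be told apart in them. The hairpins are shown for that reason, 5′ to 3′, with the listed mature strands in capitals.
Mir183 hairpin: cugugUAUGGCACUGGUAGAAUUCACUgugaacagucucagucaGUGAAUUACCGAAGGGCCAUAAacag
Mir96 hairpin: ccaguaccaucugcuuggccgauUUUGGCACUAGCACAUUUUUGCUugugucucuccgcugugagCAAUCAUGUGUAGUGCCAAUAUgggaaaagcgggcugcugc
Mir182 hairpin: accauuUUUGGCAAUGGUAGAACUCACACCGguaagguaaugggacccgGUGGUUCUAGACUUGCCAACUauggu
Mir375 hairpin: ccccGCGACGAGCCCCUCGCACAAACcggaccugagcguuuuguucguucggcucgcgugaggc

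The 3 cluster genes lie on the minus strand of chromosome 6 (mm10). In the direction of transcription Mir183 comes first (chr6:30169668-30169737), then Mir96 (chr6:30169446-30169551) after 116 bases, and Mir182 (chr6:30165918-30165992) after a further 3453 bases. The whole cluster spans 3820 bases. None of the genes overlaps another annotated gene. The nearest annotated gene upstream is Rncr4, a long noncoding RNA known from retina, on the opposite strand 3155 bases from Mir183, and the nearest downstream is Nrf1, 12459 bases from Mir182. Mir375 lies on the minus strand of chromosome 1 (chr1:74900658-74900721), outside annotated genes, 1349 bases from Cfap65 and 7514 bases from Cryba2, which encodes a lens crystallin.

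**Figure D1:**
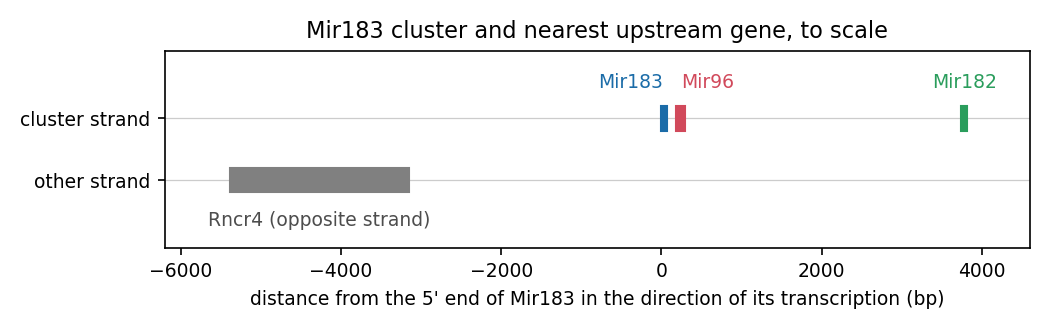
Map of the Mir183 cluster to scale. The horizontal axis is the distance in bp from the 5′ end of Mir183 along its transcription, and the boxes are annotated genes on the cluster's strand (top) and on the other strand (bottom). Mir183 and Mir96 lie 116 bases apart, and Mir182 lies 3453 bases beyond Mir96.

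Values are raw read counts in the gene's own direction, scaled to CPM, the count relative to all gene counts of the library. The libraries held 4429633 and 6985784 such counts. A count of 0 would allow up to 0.677 CPM in replicate 1 and 0.429 CPM in replicate 2 (3 counts). Reads placed at several loci, 43.9% and 47.9% of all reads, enter no gene. Of the 2202 genes, 438 reached 2 CPM in both libraries and are called detected, and all 4 genes described here were among them. Lists of miRNA genes, chosen with earlier results of these data known, were read beside the tissue label. Of 16 cortical neuron genes 12 were detected, with Mir132 highest, and all 3 oligodendrocyte genes were detected. All 7 genes of the epithelium list and all 3 of the endocrine list were detected too. Of the exocrine pancreas list 1 of 3 was detected, and of the hindbrain and spinal cord list 1 of 5. Detection alone therefore does not tell cortex from other tissues. The neuron genes Mir124a-1, Mir124a-2, Mir124a-3 and Mir9-2, each 1 of several loci for the same mature miRNA, stayed below 2 CPM in at least 1 library.

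Mir183 led the cluster. It had 52574 counts in replicate 1 and 9549 in replicate 2, which are 11869 CPM (95% Wilson interval 11768 to 11970) and 1367 CPM (1340 to 1395). It ranked 21 among all genes in replicate 1 and 77 in replicate 2. The mean level was 6618 ± 7426 CPM (SD, n = 2), so the SD exceeded the mean.

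Mir182, whose miRNA has nearly the seed of miR-96, came next in the cluster. Its 11855 and 1757 counts were 2676 CPM (2629 to 2725) and 251.5 CPM (240.02 to 264), with a mean of 1464 ± 1715 CPM (SD, n = 2). It ranked 61 in replicate 1 and 156 in replicate 2.

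Mir96, the member tied to hearing, was far lower. It had 648 counts in replicate 1 and 49 in replicate 2, or 146 CPM (135 to 158) and 7.01 CPM (5.31 to 9.27). Its rank was 183 in replicate 1 and 335 in replicate 2, and the mean was 76.7 ± 98.5 CPM (SD, n = 2).

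Mir375, the endocrine gene, had 8627 and 1869 counts. These were 1948 CPM (1907 to 1989) at rank 72 in replicate 1 and 267.5 CPM (256 to 279.9) at rank 154 in replicate 2, with a mean of 1108 ± 1188 CPM (SD, n = 2).

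**Figure D2:**
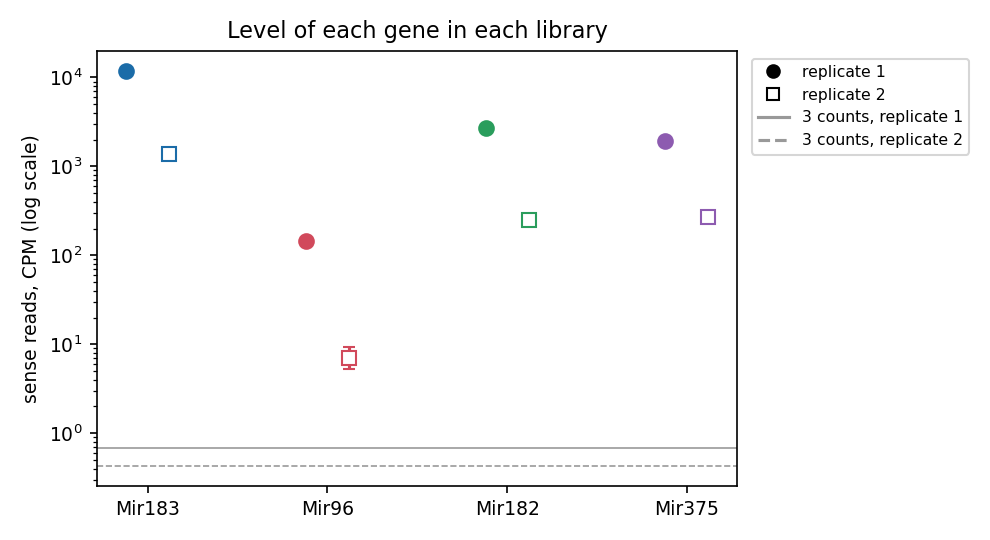
Level of each gene in each library in CPM of sense counts, on a log axis. Filled circles are replicate 1, open squares replicate 2, bars are 95% Wilson intervals for counting error (most are smaller than the symbol), and the grey lines mark 3 counts; each gene is lower in replicate 2, and Mir96 is the lowest gene in both libraries.

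Each gene's level therefore rests on which library is read. By mean CPM the order was Mir183, Mir182, Mir375 and Mir96, and neighbours in that order differed by less than 1 SD of the higher gene. Within a library the order was clearer. Mir183 was highest and Mir96 lowest in both libraries. Mir182 was above Mir375 in replicate 1, with a count ratio of 1.37 (exact 95% interval 1.34 to 1.41), while in replicate 2 that ratio was 0.94 (0.88 to 1.004). Since genes differ in annotated length, levels were also taken per 100 nt. Per 100 nt the order was the same in replicate 1 (16955 CPM for Mir183, 3568 for Mir182, 3043 for Mir375 and 138 for Mir96), and in replicate 2 Mir375 (418 CPM) stood above Mir182 (335 CPM). Mature miRNAs are read whole, so length sets no number of reads per molecule here. Differences in ligation or amplification between sequences cannot be told apart from differences in level.

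The genes next to each member in mean level had smaller SDs relative to their means. Mir383 and Mir674 stood next above Mir183, at 6705 ± 359 and 6636 ± 4001 CPM (SD, n = 2), and Mir342 next below at 5673 ± 1881 CPM. Beside Mir182 were Mir181b-2 (1546 ± 61.6 CPM) and Mir425 (1321 ± 41.9 CPM), beside Mir375 Mir667 (1109 ± 307 CPM) and Mir1843a (1033 ± 74.7 CPM), and beside Mir96 Mir24-2 (77.8 ± 11.3 CPM) and Mir3093 (74.4 ± 41.02 CPM). The SD was 107 to 128% of the mean for the 4 genes, against a median of 23.7% over the 438 detected genes. Nothing is read from this gap, since the genes were chosen for it.

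The second question was how the reads of the cluster are divided among its members, which needs no scaling between libraries. The cluster held 65077 counts in replicate 1 and 11355 in replicate 2, or 1.47% (1.46 to 1.48) and 0.163% (0.16 to 0.166) of the gene counts. Mir183 made up 80.8% of the cluster's counts in replicate 1 (95% Wilson interval 80.5 to 81.1) and 84.1% in replicate 2 (83.4 to 84.8), a mean of 82.4% ± 2.34 (SD, n = 2). Mir182 made up 18.2% (17.9 to 18.5) and 15.5% (14.8 to 16.2), a mean of 16.8% ± 1.94. Mir96 made up 0.996% (0.922 to 1.07) and 0.432% (0.327 to 0.57), a mean of 0.714% ± 0.399. The share of Mir183 was thus higher, and those of Mir182 and Mir96 lower, in replicate 2, each by more than the counting error. Counting error does not cover the spread between libraries, and separate animals are not stated, so nothing more is read from these shifts.

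As ratios, Mir183 had 4.43 counts for each count of Mir182 in replicate 1 (exact 95% interval 4.35 to 4.52) and 5.43 in replicate 2 (5.16 to 5.72). Mir182 had 18.3 counts for each of Mir96 in replicate 1 (16.9 to 19.8) and 35.9 in replicate 2 (27.001 to 48.7). For Mir183 over Mir96 the ratios were 81.1 (75.1 to 87.8) and 195 (147 to 264). The intervals of the 2 libraries do not overlap in any of these 3 pairs, but they leave out the spread between libraries. Mir183 over Mir96 is the product of the other 2 ratios. Pairs of other genes were not compared in this way, so nothing is read from the lack of overlap. Between the libraries, the log2 ratios of the cluster's members spanned 1.25, against a median span of 1.09 over the 41 miRNA clusters described below. Replicate 2 over replicate 1, the ratio of Mir183 to Mir182 was 1.23 times as high (1.16 to 1.30), that of Mir182 to Mir96 was 1.96 times (1.46 to 2.69) and that of Mir183 to Mir96 was 2.40 times (1.79 to 3.28). These are counting intervals over 2 libraries, reads carry no molecular identifiers, and no p is given because the same contrast chose the genes. Mir96 had only 49 counts in replicate 2, and its ratios carry the widest intervals.

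**Figure D3:**
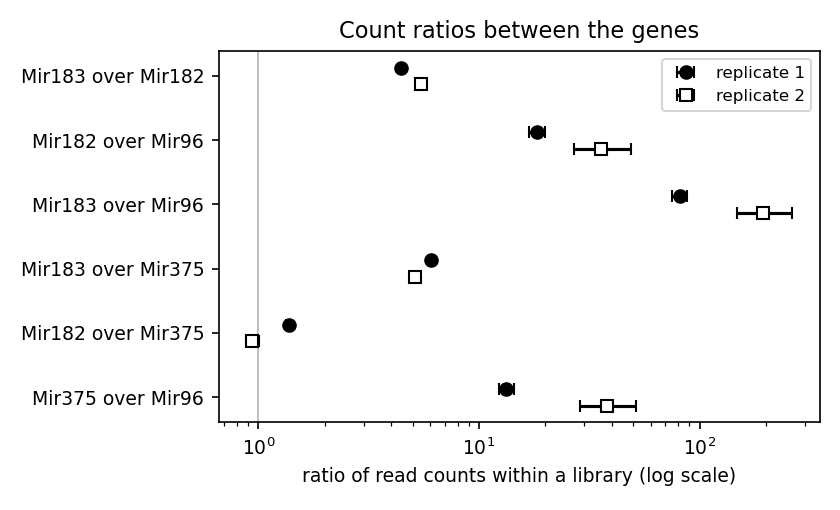
Ratio of read counts between pairs of genes within each library, on a log axis. Filled circles are replicate 1, open squares replicate 2, and bars are exact 95% intervals for counting error; ratios to Mir96 are higher in replicate 2, while Mir183 over Mir182 is 4.43 and 5.43.

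Per annotated nucleotide the ratios were 4.75 and 5.82 for Mir183 over Mir182 and 25.9 and 50.7 for Mir182 over Mir96, in replicates 1 and 2, because Mir96 has the longest annotated hairpin (106 nt, against 70 nt for Mir183 and 75 nt for Mir182). The opposite strand added nothing to these ratios: it held 1 count for Mir183 in replicate 2 and 0 for the other genes and libraries.

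Bases 2 to 7 (UUGGCA) are shared by the 5p strands of Mir182 and Mir96, and Mir182 held most of the counts of that pair. The only other listed strand with these bases is miR-1271-5p of Gm24195 on chromosome 13, which shares the full miR-96-5p seed.
mmu-miR-1271-5p: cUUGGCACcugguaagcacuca
Gm24195 had 0 counts in both libraries, which allows up to 0.677 and 0.429 CPM. The other arm of Mir96, miR-96-3p, shares its seed AAUCAUG with miR-3475-5p, and Mir3475 had 667 counts (151 CPM) in replicate 1 and 928 (133 CPM) in replicate 2. No other listed strand shared a seed with either strand of Mir183, or with miR-375-5p, the only Mir375 strand compared.

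The contrast that chose the genes was then described across all detected genes. Ratios are replicate 2 over replicate 1 after TMM scaling, with 0.5 counts added. The log2 ratio was -2.99 for Mir183 (exact 95% counting interval -3.02 to -2.96), -4.24 for Mir96 (-4.71 to -3.84), -3.29 for Mir182 (-3.36 to -3.21) and -2.74 for Mir375 (-2.81 to -2.67). These are levels 7.96, 18.9, 9.75 and 6.67 times lower in replicate 2. All 4 genes were at least 2 times lower, as were 8.68% of the 438 detected genes, and all 4 were at least 4 times lower, as were 2.51%. Counted from the lowest, Mir96 had the 1st, Mir182 the 4th, Mir183 the 7th and Mir375 the 9th ratio. The median over all detected genes was -0.03, with quartiles of -0.57 and 0.44. Nothing more is read from these counts, since the choice of genes fixed their direction. The 2 libraries cite different adapter trimming documents, so trimming and replicate cannot be told apart. In bulk tissue, fewer cells of a type and less RNA per cell cannot be told apart either.

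**Figure D4:**
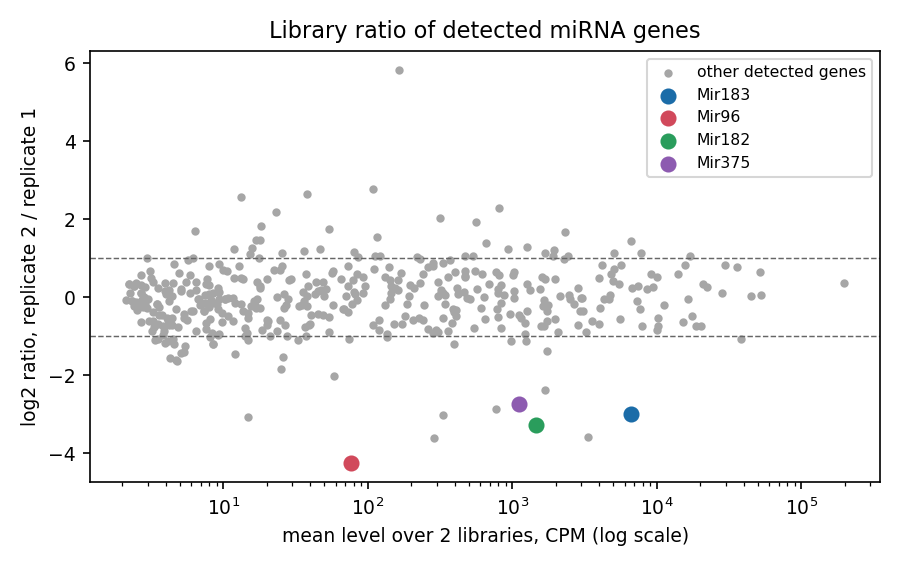
Log2 ratio of replicate 2 over replicate 1 (TMM scaling) against the mean level in CPM (log axis) for the 438 detected genes, with the 4 genes in colour and dashed lines at a ratio of 2. The 4 coloured points lie between -2.74 and -4.24, and most grey points lie between the dashed lines.

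The ratio between the libraries also moved with base composition. Its median was 0.44 among the detected genes up to the lower quartile of GC and -0.47 among those from the upper quartile on. The cluster genes had 45.7% (Mir183), 48.0% (Mir182) and 50.9% GC (Mir96), below the median of 53.2%, and Mir375 had 67.2%. With the trend on GC removed the log2 ratio of Mir375 was -2.23, and those of Mir183, Mir182 and Mir96 were -3.26, -3.45 and -4.30.

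Genes with the nearest log2 ratio were sought among 195 others at a mean of 100 CPM or more, over 2 libraries. That ratio is the contrast that chose the 4 genes, so the nearest genes are others with low values in replicate 2. Nearest to Mir183 were Mir200a (-3.01), Mir185 (-2.86) and Mir200c (-3.59). Nearest to Mir182 were Mir200a, Mir200c and Mir141 (-3.60). The same 3 genes were nearest to Mir96, but at gaps of 0.65 (Mir141 and Mir200c) and 1.23 (Mir200a) on the log2 scale. Nearest to Mir375 were Mir185, Mir200a and Mir429 (-2.39). Mir200a, Mir200c, Mir141 and Mir429 belong to the family known for holding epithelial cells in their state.

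Marker lists of other tissues were read beside these values, and their part in the result was not tested. The epithelium list, whose Mir200 genes are also known from olfactory and pituitary tissue, summed to 12838 and 2060 CPM in replicates 1 and 2. Of its 7 genes 6 were at least 2 times lower in replicate 2, against 8.68% of all detected genes. The other, Mir203, was not past a ratio of 2 (log2 ratio 0.66), and no gene of the list was at 0. Mir200c and Mir141 lie in the same cluster, and Mir200b, Mir429 and Mir200a in another, so the 6 are not separate cases. The list was also chosen with earlier results of these data known. Endocrine genes of the Mir7 family summed to 1948 and 2301 CPM, mostly from Mir7b, and their members differed. Reads placed at several loci enter no gene, so these sums leave out any such reads of the family. Mir7b was at 1734 and 2190 CPM, Mir7-1 at 26.4 and 25.9 CPM and Mir7-2 at 188 and 85.2 CPM (log2 ratio -1.02). Mir7-2 was the 1 of 3 at least 2 times lower in replicate 2, again against 8.68% of all detected genes. Retina and pigment epithelium genes summed to 852 and 1852 CPM, with 2 of 3 at least 2 times higher in replicate 2, against 9.59% of all detected genes. These were Mir204 (log2 ratio 1.30) and Mir211 (log2 ratio 1.69), which are in the choroid plexus list too. Mir184 had a log2 ratio of 0.44. Exocrine pancreas genes had 25 and 30 counts in all, with Mir216b at 0 in replicate 1, and the liver gene Mir122 had 112 and 219. Choroid plexus and ciliated cell genes summed to 1175 and 2472 CPM. Of the 5 detected, 4 were at least 2 times higher, again against 9.59%, and Mir449b was at 0. Cortical neuron genes summed to 79956 and 95703 CPM, with 2 of the 12 detected at least 2 times higher, again against 9.59%. These were Mir9-1 (49 and 449 counts) and Mir9-3 (18 and 157 counts), whose counts, like those of Mir9-2, leave out reads placed at several loci. Oligodendrocyte genes summed to 7110 and 7851 CPM, microglia and leukocyte genes to 896 and 1282 CPM and endothelial genes to 1641 and 2948 CPM, with no detected gene past a ratio of 2 and Mir126b at 0. Hox cluster genes of hindbrain and spinal cord had 47 and 59 counts, with Mir196a-1 and Mir196a-2 at 0, and the 2 matched red blood cell genes had 11 and 75.

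How closely the cluster's members moved together was set beside other miRNA clusters, defined as genes on 1 strand with gaps of at most 10 kb. There were 41 clusters with at least 2 detected members. Inside the Mir183 cluster the log2 ratios spanned 1.25, the 16th widest span of the 41, against a median of 1.09 with quartiles of 0.33 and 1.48. Among the 10 clusters with 3 detected members its span was the 6th widest, and their median was 1.28. Without Mir96, which falls below a mean of 100 CPM, the span of Mir183 and Mir182 was 0.29. That was the 21st widest of the 26 clusters with at least 2 members at that level, whose median was 0.98, and the 16th of the 21 with exactly 2, whose median was 0.76. All members were at least 2 times lower in replicate 2 in 3 of the 41 clusters, those led by Mir200c, Mir183 and Mir200b. Nothing is read from the place of the Mir183 cluster among them, since its genes were chosen by this contrast.

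Levels inside the cluster were spread more widely than its library ratios. The highest and lowest member differed by 6.34 on the log2 scale in replicate 1 and 7.61 in replicate 2, the 11th and 7th widest of 41, where the medians were 3.83 and 3.64. The order Mir183, Mir182, Mir96 was the same in both libraries, as was the order of members in 31 of the 41 clusters. Clusters differ in size and share both libraries, so these positions are a description.

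**Figure D5:**
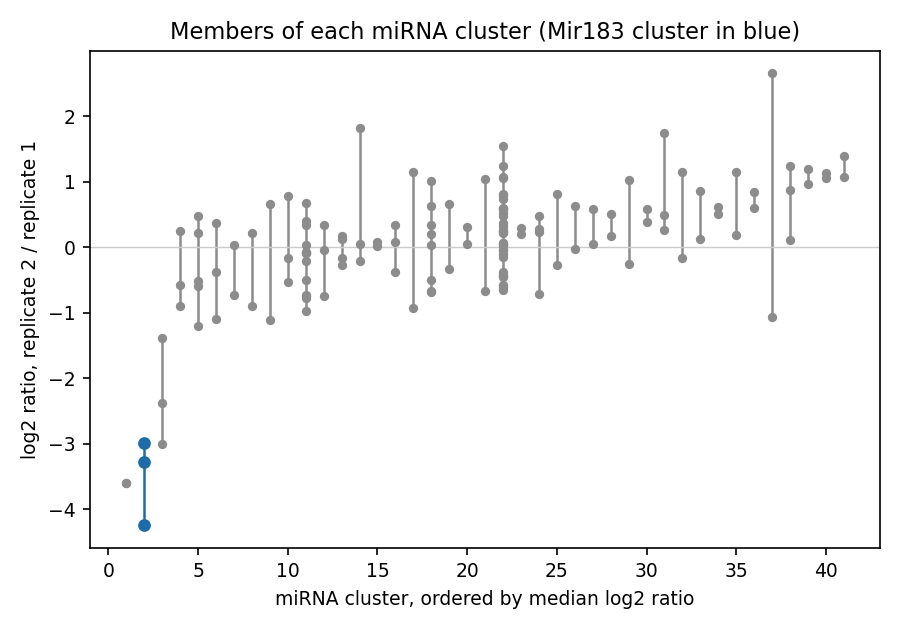
Log2 ratio of replicate 2 over replicate 1 (TMM scaling) for each detected member of the 41 miRNA clusters, ordered by cluster median. Points are genes and lines span a cluster. The Mir183 cluster, in blue, spans 1.25 and has the 2nd lowest median, its genes having been chosen for lower values in replicate 2.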

How the data were processed

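Small RNA under 30 nt from mouse cerebral cortex was sequenced in 2 libraries of 1 group. The authors deposited raw read counts per miRNA gene (either strand and each strand), on mm10 with the M21 annotation per the labels and readme text. Which aligner and counter were run is not given in the sources used here. The 4 summary lines that name no gene were left out of library sizes (unmapped 17.0% and 11.1%, several loci 43.9% and 47.9%, outside genes 3.67% and 2.81%, ambiguous 1.74% and 2.15% of reads). All 2202 identifiers matched GENCODE M21. Sense counts were scaled to CPM. Library ratios used TMM (edgeR 4.0.16), with DESeq2 1.42.0 size factors as an alternative. The ratio script was tested on simulated Poisson counts, which hold no GC trend and no spread beyond counting error. Intervals are 95% Wilson for shares and exact for ratios (scipy 1.17.1), and cover counting error only. With 1 group no test between conditions exists. Genes were named by rule: the members, genes sharing a seed, the 3 nearest in ratio to each member, neighbours in level, leading list genes and flanking genes, not all of which are printed. The members and lists were chosen with earlier results of these data known.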

Additional observations from a re-analysis of the deposited data

How the results depend on the processing

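The direction of all 4 library ratios held under 7 alternatives, and all 4 genes stayed past a ratio of 2, and of 4, in each setting tried. In the main setting 8.68% and 2.51% of the 438 detected genes were lower in replicate 2 past these ratios. The choice of genes fixed the direction, and every alternative used the same 2 libraries, so this is no separate support. For Mir183 the log2 ratio was -3.12 with library totals, -2.96 with DESeq2 size factors, -2.89 with no filter on low counts and -3.26 with the GC trend removed. For Mir182 it was -3.41 with totals, -3.19 with no filter and -3.45 with the GC trend removed, and for Mir375 -2.86, -2.64 and -2.23. Values for Mir96 ran from -4.37 to -4.04, within its counting interval. Library totals moved the median of all genes by -0.13, and the detected genes past a ratio of 2 were then 55 lower and 29 higher in replicate 2, against 38 and 42. The count at least 2 times lower was 142 of 787 genes with no filter, and it was 105 at a ratio of 1.5 and 11 at a ratio of 4. The span inside the cluster was 0.29 at a mean of 100 CPM or more, since Mir96 drops out. Leaving out 1 library leaves the other's own value: Mir183 ran from 1367 to 11869 CPM, Mir96 from 7.01 to 146, Mir182 from 251.5 to 2676 and Mir375 from 267.5 to 1948, and no library ratio exists without either. No paired analysis was possible because there is 1 group. Depth limits Mir96 most, at 49 counts in replicate 2.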

Other observations

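Besides the 4 genes, 7 of the 438 detected genes were at least 4 times lower in replicate 2, and they were picked out after their values were seen. They are Mir141, Mir200c, Mir200a and Mir429 of the Mir200 family, Mir185 (6044 and 1201 counts), Mir505 (421 and 150 counts) and Mir3074-1 (119 and 20 counts). Mir3074-1 (chromosome 13, 63301199 to 63301283) overlaps Mir24-1 on the other strand. Its opposite-strand counts, 116 and 565, are the sense counts of Mir24-1. In replicate 1 the 11 genes held 2.83% of the gene counts, of which the 4 genes described above made up 58.7%, and in replicate 2 they held 0.318%.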
